A study of Mus musculus with 10 samples.

Results

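Muscle mass is set by the balance between making and breaking down protein, and the ubiquitin-proteasome system does much of the breaking down. E3 ubiquitin ligases choose the proteins to be marked with ubiquitin, which the proteasome then degrades. Fbxo32 (atrogin-1, also MAFbx), Fbxo30 (MUSA1), and Fbxo40 encode F-box proteins, the substrate-binding parts of ligases built on Skp1, Cul1, and Rbx1. Trim63, Trim55, and Trim54 encode MuRF1, MuRF2, and MuRF3, RING-type ligases of the sarcomere. The FoxO transcription factors encoded by Foxo1, Foxo3, and Foxo4 are kept out of the nucleus when Akt is active, and they turn on ligase and autophagy genes when it is not. These 9 genes were taken by name from the 16112 genes of the deposited count tables, with Ensembl identifiers matched to a GRCm38 annotation, and all 9 were present.

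RNA was sequenced from extensor digitorum longus (EDL), psoas, and soleus muscle of wild-type mice. The labels name no treatment other than storage of the tissue, so no comparison of atrophied with control muscle was made. EDL and psoas are classed as fast-twitch muscles, and soleus as a slow-twitch one. There were 3 EDL, 3 psoas, and 4 soleus libraries. The strain label of all mice is B6C3Fe a/a-Ttnmdm/J, a line that carries a titin deletion allele, and the mice used were homozygous for the wild-type allele. Ages were 42, 54, and 44 days for EDL 1 to 3 and for psoas 1 to 3, and 42, 44, 32, and 44 days for soleus 1 to 4. Sex was male in 5 libraries, female in 4, and not given for soleus 3. The labels hold 7 animal codes, 3 of which gave 2 libraries each, and the methods state fewer mice than codes. The mice had also served in another study.

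Total counts ranged from 12737971 to 50431713 per library, and members had between 47 counts (Foxo1 in soleus 3) and 16250 counts (Fbxo40 in EDL 2). Levels are given as normalized CPM, counts scaled to a common library total with TMM factors, where 3 counts, the upper limit that a count of 0 allows, were worth 0.0565 to 0.239. Slow myofiber markers (8 genes, such as Myh7 and Tnnt1) summed to 19700 to 31600 CPM in soleus, 77.1 to 369 in EDL, and 38.9 to 115 in psoas. These sums set soleus apart from both other muscles and overlap between EDL and psoas. Of the 8 genes, 4 were lower in psoas than in EDL at an edgeR adjusted p under 0.05, and 1 had a higher value in psoas. With a 2-fold threshold and an adjusted p under 0.01, 0 passed. Tendon and fibroblast markers summed to 2440 to 3930 CPM in EDL, 592 to 874 in psoas, and 633 to 1550 in soleus, and in bulk tissue fewer cells of a type and less RNA per cell cannot be told apart. Lars2, a mitochondrial leucyl-tRNA synthetase gene, held 7.25% to 12.4% of the counts in EDL 1, psoas 1, psoas 2, and soleus 1, and at most 0.076% in the others. Reads of EDL 1 and 2 and of psoas 1 and 2 were quality-trimmed, and those of the other libraries were not. No soleus library was trimmed, so with trimming as a covariate soleus is set mainly against EDL 3 and psoas 3. The part of tendon content, Lars2 content, and trimming in the results was not tested beyond the fits given beside them.

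FoxO factors act on DNA elements near the genes they regulate, and promoter sequences were at hand for 6 of the 9 genes from RefSeq (GRCm38.p6), as 7 windows from 250 bases before to 50 after a start. Fbxo32, Trim55, and Foxo4 were not among them. The FoxO element GTAAACA was searched on both strands, with the glucocorticoid receptor hexamer AGAACA, its palindrome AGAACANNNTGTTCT, which contains the hexamer, and the E-box CAGCTG bound by myogenic factors. The 250 bases before the start of Trim63 and of its relative Trim54 are given because Trim63 was the only one of the 6 genes with a FoxO element in its window. Capitals mark matches to the FoxO element, the hexamer, and the E-box, and the first 2 of these adjoin in Trim63.
Trim63, chr4:134314870-134315119, plus strand: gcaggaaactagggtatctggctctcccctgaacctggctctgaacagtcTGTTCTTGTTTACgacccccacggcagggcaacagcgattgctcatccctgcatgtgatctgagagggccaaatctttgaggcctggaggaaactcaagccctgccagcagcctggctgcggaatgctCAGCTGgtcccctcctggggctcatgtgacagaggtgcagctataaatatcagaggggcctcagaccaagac
Trim54, chr5:31116362-31116611, plus strand: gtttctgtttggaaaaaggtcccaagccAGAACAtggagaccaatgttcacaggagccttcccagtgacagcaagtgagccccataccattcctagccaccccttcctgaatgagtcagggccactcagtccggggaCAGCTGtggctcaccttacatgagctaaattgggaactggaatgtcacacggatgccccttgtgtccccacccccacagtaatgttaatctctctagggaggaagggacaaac

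In Trim63 the hexamer lay 200 to 195 and the FoxO element 194 to 188 bases before the start, both on the minus strand, and the E-box 72 to 67 bases before it. In Trim54 the hexamer lay 222 to 217 and the E-box 113 to 108 bases before the RefSeq start used for its window. The GENCODE start of the Trim54 gene, 31116712, lies further downstream. Of the 32851 promoters of this length, 3.65% held the FoxO element, 19.0% the hexamer, 16.3% the E-box, and 0.00913% the palindrome. The hexamer was in windows of 3 members and the E-box in windows of 3 members, in both cases Trim63, Trim54, and Fbxo40. An exact match to the palindrome, rare among all promoters, was in none. In Trim63 the stretch tgaacagtcTGTTCT differs from the palindrome at its first base only, and near matches were not searched. A match is a run of letters in the reference genome and was not tested for binding.

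Per kilobase of summed exons, the mean level over the 10 libraries was 61.6 ± 15.0 CPM (SD) for Trim54, 61.1 ± 15.9 for Fbxo40, and 52.5 ± 18.7 for Trim63. The order of these 3 genes was not tested. Within libraries the ratio of Trim63 to Trim54 ran from 0.438 to 1.25, and the Trim63 level depends on the length used (2842 bases of summed exons, 1886 in its longest transcript). By the mean over libraries, Fbxo32 followed at 15.7 ± 7.33 CPM per kilobase, then Foxo4 at 11 ± 2.95 and Trim55 at 7.40 ± 2.22. Fbxo30 came next at 5.48, with a lowest library of 4.01 and a highest of 6.66. In EDL alone the mean of Fbxo32 (6.74) lay under that of Foxo4 (9.23). Foxo3 (1.62 ± 0.519) and Foxo1 (0.795 ± 0.268) had the lowest levels. Relative to its mean, Fbxo32 varied most, with a coefficient of variation of 46.6% over the 10 libraries against 18.5% for Fbxo30. The mean was highest in psoas for 7 of the 9 genes and in soleus for the other 2, Fbxo32 and Foxo3, and EDL had the lowest mean for 7.

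**Figure D1:**
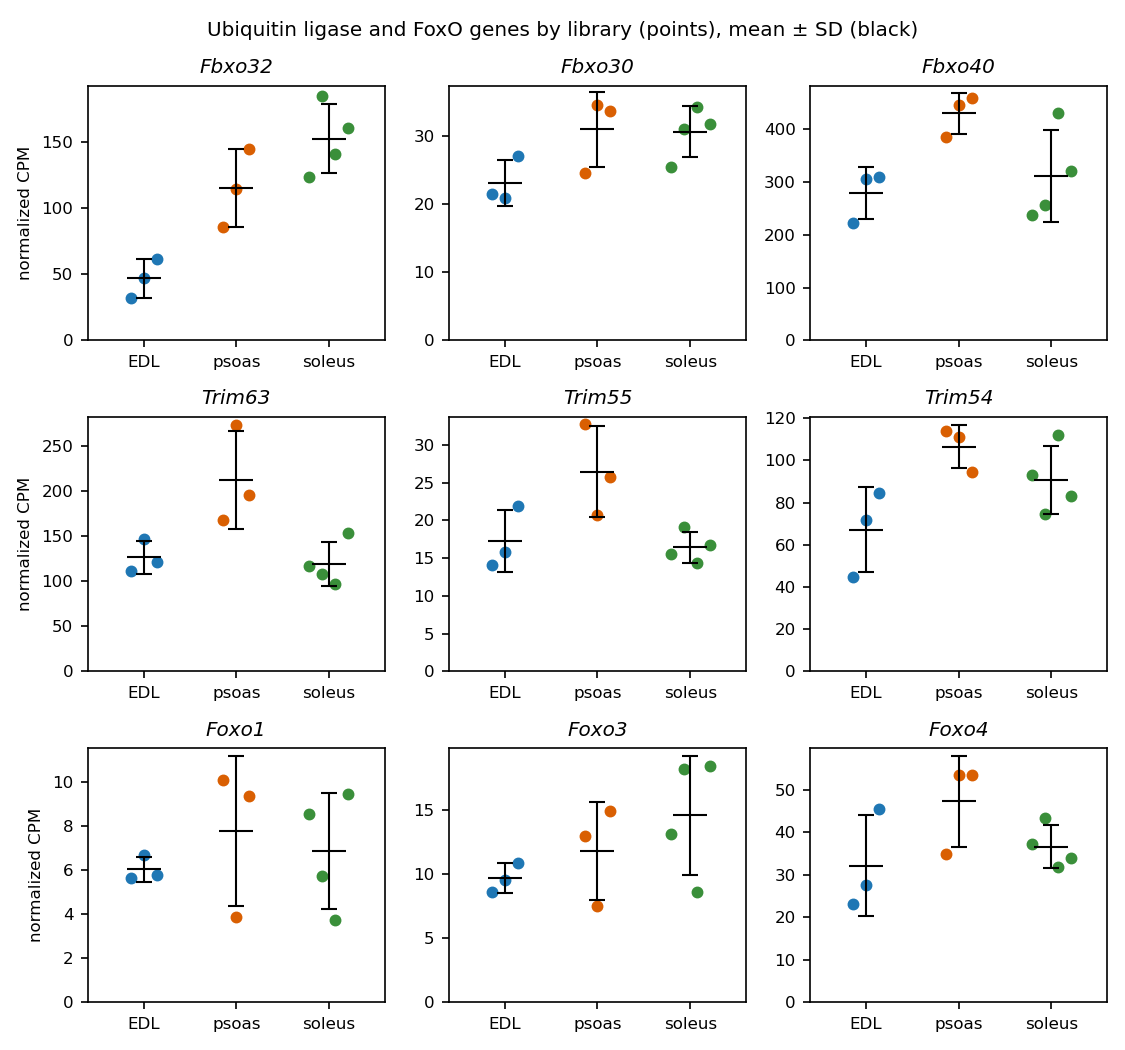
Normalized CPM (vertical axes, linear, from 0) of the 9 genes in each library, by muscle, with the mean and SD in black. The 3 EDL points of Fbxo32 sit between 32.0 and 61.8, below all psoas and soleus points, whereas the 3 psoas points of Trim63 sit between 168 and 273, above all others.

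The comparisons asked which of these genes differ between slow and fast muscle, and between the fast muscles EDL and psoas. Fbxo32 was the one member that passed both thresholds (adjusted p below 0.01, more than a 2-fold difference), and it did so for soleus against EDL. It was 3.25-fold higher in soleus. The tests were edgeR quasi-likelihood tests with Benjamini-Hochberg adjustment over 16112 genes, and their p-values measure the spread between these libraries. That is 1 of 9 members called in soleus vs EDL, where 5.77% of all genes were called, 3.59% as higher in soleus, with 2 members at an unadjusted p under 0.05 (35.0% of all genes) and 1 call by DESeq2 (9.43% of all genes). In psoas vs EDL 0 of 9 members were called (2.11% of all genes), with 6 members at an unadjusted p under 0.05 (29.0% of all genes) and 1 call, Fbxo32, by DESeq2 (6.80% of all genes). In soleus vs psoas 0 of 9 were called (5.69% of all genes), with 2 at an unadjusted p under 0.05 (28.4% of all genes) and 0 by DESeq2 (8.58% of all genes). Without the fold threshold, at an adjusted p under 0.05, the counts were 1 in psoas vs EDL (11.1% of all genes), 1 in soleus vs EDL (18.6%), and 2, Trim63 and Trim55, in soleus vs psoas (14.5%).

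**Figure D2:**
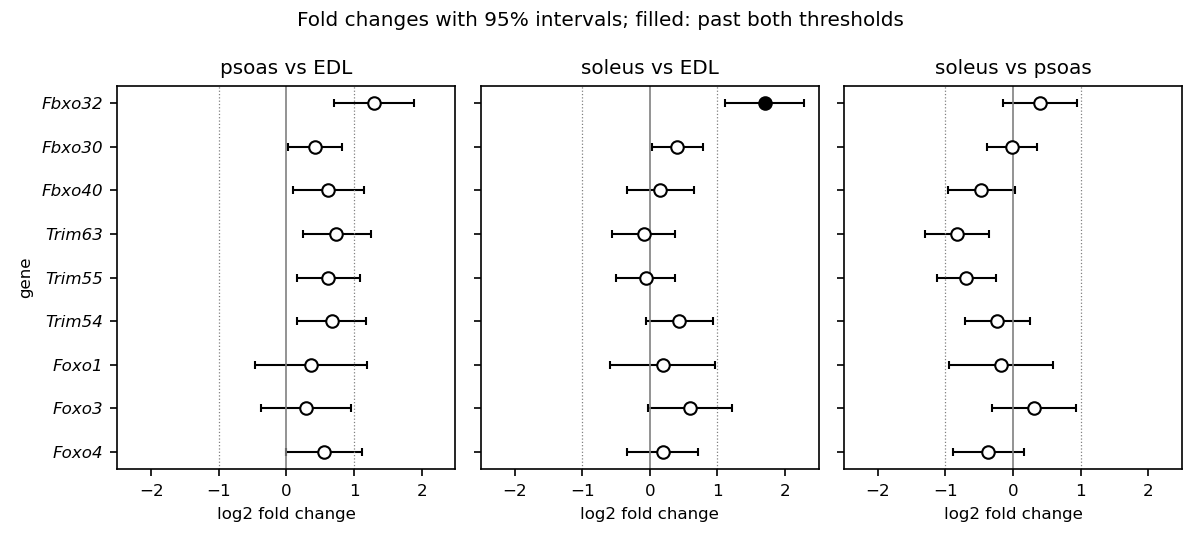
Log2 fold change (horizontal axes) of the 9 genes in the 3 comparisons, first muscle over second, with 95% intervals from the edgeR fit and dotted lines at a fold change of 2. The filled point, Fbxo32 in soleus vs EDL at 1.70, is the one past both thresholds, and all 9 points of psoas vs EDL lie above 0.

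Fbxo32 encodes the F-box ligase subunit that is among the genes most used to report muscle atrophy. Fbxo32 (ENSMUSG00000022358) lies on chromosome 15, 58175879 to 58214932 on the minus strand (GRCm38). It stood at 32.0, 47.2, and 61.8 CPM in EDL 1 to 3. The values were 85.8, 115, and 145 CPM in psoas 1 to 3, and 124, 185, 141, and 161 in soleus 1 to 4. Both other muscles lay wholly above EDL, and psoas and soleus overlapped. The log2 fold change was 1.70 (SE 0.26, 95% interval 1.12 to 2.28) for soleus over EDL, with an adjusted p of 0.00167 by edgeR. For psoas over EDL it was 1.30 (SE 0.27, 0.70 to 1.89) with an adjusted p of 0.0149, past the fold threshold and short of the p threshold. For soleus over psoas it was 0.40 (SE 0.25, -0.15 to 0.95), adjusted p 0.33.

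The EDL difference of Fbxo32 was looked at within the trimmed and untrimmed reads. Among trimmed libraries EDL 1 and 2 (32.0 and 47.2 CPM) lay below psoas 1 and 2 (85.8 and 115). Among untrimmed libraries EDL 3 (61.8) lay below psoas 3 (145) and the lowest soleus library (124). With trimming as a covariate in edgeR, soleus over EDL was 1.34 with an adjusted p of 0.0117, no longer a call, and psoas over EDL was 1.30 with 0.0045, a call. In a test against a fold change of 2 the adjusted p was 0.0724 for soleus vs EDL and 0.797 for psoas vs EDL. Over the other alternatives it ran from 3.55e-09 to 0.0117 and from 8.05e-05 to 0.0634. Without EDL 2 the soleus over EDL value was 1.70 with an adjusted p of 0.0112, no longer a call, and without EDL 3 the psoas over EDL value was 1.54 with 0.00556, a call.

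Fbxo40 encodes a muscle-restricted F-box protein known to act on the insulin receptor substrate IRS1. Fbxo40 (ENSMUSG00000047746) lies on chromosome 16, 36963460 to 36990467 on the minus strand (GRCm38). Its levels were 222, 306, and 310 CPM in EDL 1 to 3, 386, 446, and 459 in psoas 1 to 3, and 238, 256, 430, and 320 in soleus 1 to 4. Psoas lay above EDL without overlap, and soleus spanned both. The log2 fold change was 0.62 for psoas over EDL (SE 0.24, 95% interval 0.09 to 1.15, edgeR adjusted p 0.118) and -0.47 for soleus over psoas (SE 0.23, -0.96 to 0.03, adjusted p 0.2). Irs1 itself stood at 45.2 ± 9.04 CPM in EDL, 59.5 ± 16.4 in psoas (n = 3 each), and 44.6 ± 16.3 in soleus (n = 4), with overlap in every pair.

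Fbxo30, whose product MUSA1 is an F-box protein induced when BMP signaling is low, was the least variable member. Fbxo30 (ENSMUSG00000047648) lies on chromosome 10, 11281330 to 11298052 on the plus strand (GRCm38). It stood at 21.5, 20.9, and 27 CPM in EDL 1 to 3, 24.6, 34.6, and 33.7 in psoas 1 to 3, and 25.4, 31.0, 34.3, and 31.7 in soleus 1 to 4. The muscles overlapped in every pair. Its log2 fold changes were 0.42 (95% interval 0.02 to 0.82), 0.41 (0.03 to 0.79), and -0.02 (-0.39 to 0.36) for psoas over EDL, soleus over EDL, and soleus over psoas.

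The makeup of the F-box group was compared as shares of the summed counts per kilobase within a library, a measure that does not depend on scaling between libraries. Fbxo32 took 9.36%, 10.2%, and 12.6% in EDL 1 to 3. In psoas 1 to 3 it took 14.1%, 15.8%, and 18.9%, and in soleus 1 to 4 26.9%, 33.6%, 19.3%, and 26.5%. The order EDL, psoas, soleus held with no overlap between any pair, although psoas 3 and soleus 3 nearly met. Means were 10.7% ± 1.68 (SD, n = 3), 16.3% ± 2.40 (n = 3), and 26.6% ± 5.83 (n = 4). Exact 2-sided permutation tests gave p = 0.1 for psoas vs EDL and p = 0.0571 for both soleus comparisons, the smallest these designs allow, so none could reach 0.05. Adjusted over the 27 share tests, the permutation p values were 0.441 and 0.386. Fbxo40 had the largest share, 82.0% ± 1.87 in EDL, 77.8% ± 2.58 in psoas, and 66.4% ± 6.36 in soleus, with Fbxo30 at 5.91% to 7.30% of the group on average.

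**Figure D3:**
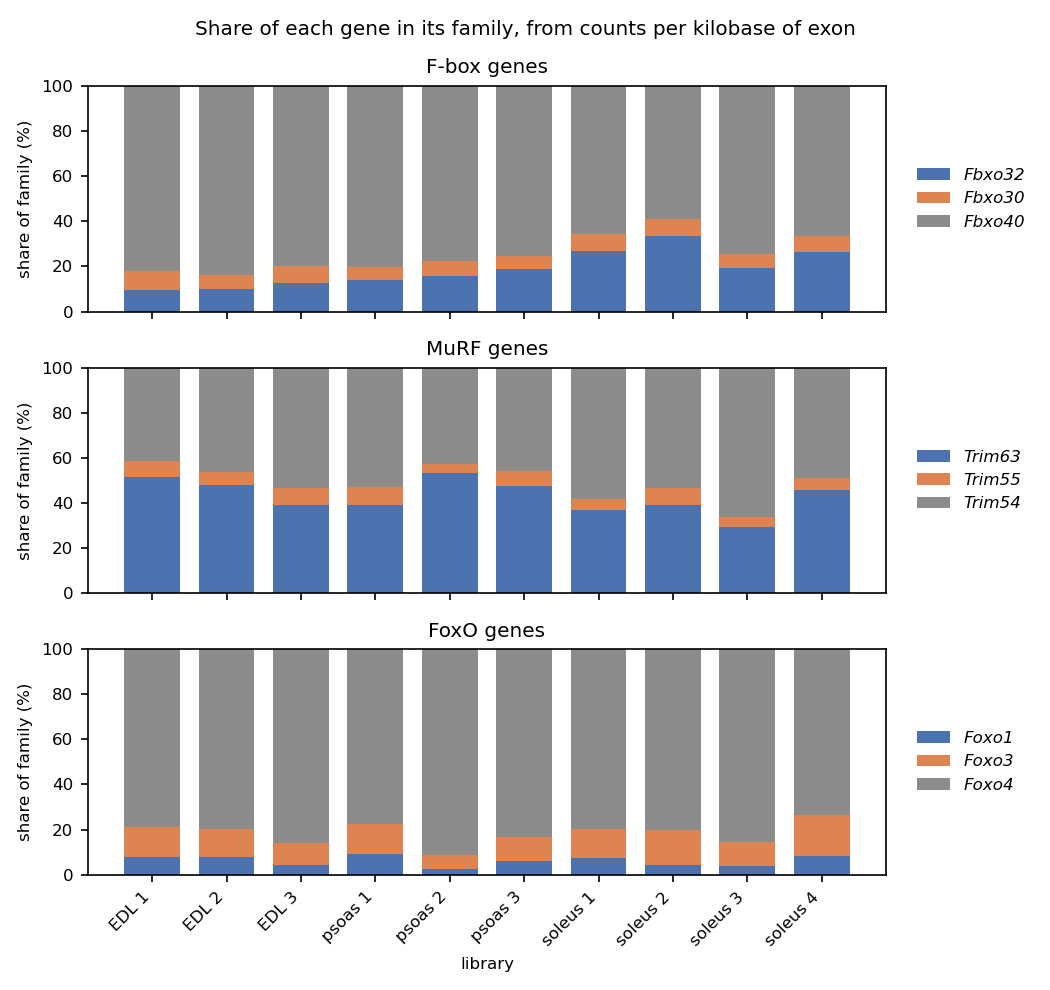
Share of each gene (vertical axes, percent) in the summed counts per kilobase of its family, in the 10 libraries. The Fbxo32 share lies at 9.36% to 12.6% in EDL and 19.3% to 33.6% in soleus, while the shares within the MuRF and FoxO families overlap between muscles.

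The MuRF genes had their highest means in psoas. Trim63 encodes MuRF1, which binds titin near the M-band and marks thick-filament proteins. Trim63 (ENSMUSG00000028834) lies on chromosome 4, 134315120 to 134329629 on the plus strand (GRCm38). It stood at 111, 147, and 121 CPM in EDL 1 to 3, 168, 273, and 195 in psoas 1 to 3, and 117, 108, 97.4, and 153 in soleus 1 to 4. All psoas libraries lay above all others, and EDL and soleus overlapped. The log2 fold change was -0.83 for soleus over psoas (SE 0.21, 95% interval -1.30 to -0.36), with an edgeR adjusted p of 0.0236. It was 0.74 for psoas over EDL (SE 0.23, 0.24 to 1.25, adjusted p 0.0604) and -0.09 for soleus over EDL (-0.56 to 0.38, adjusted p 0.796). Without psoas 2 the soleus over psoas value was -0.60 with an adjusted p of 0.123. Leaving out soleus 1, 2, or 3 also took the adjusted p past 0.05, to 0.0539, 0.0658, and 0.0543. With a stand-in for the sequencing run as a covariate (trimmed, untrimmed at 44 days, other untrimmed), it was -0.61 with 0.244, and with read trimming as a covariate -0.74 with 0.0963.

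Trim55 encodes MuRF2, which associates with microtubules, titin, and myosin. Trim55 (ENSMUSG00000060913) lies on chromosome 3, 19644474 to 19692421 on the plus strand (GRCm38). It stood at 14.1, 15.8, and 21.9 CPM in EDL 1 to 3, 32.7, 20.7, and 25.8 in psoas 1 to 3, and 15.5, 19.1, 14.4, and 16.7 in soleus 1 to 4. All psoas libraries lay above all soleus libraries, and EDL 3 lay above psoas 2. The log2 fold change was -0.69 for soleus over psoas (SE 0.20, 95% interval -1.12 to -0.25, edgeR adjusted p 0.0402) and 0.62 for psoas over EDL (SE 0.21, 0.15 to 1.09, adjusted p 0.0832). For soleus over EDL it was -0.06 (-0.50 to 0.38). The adjusted p for soleus over psoas was 1.0 in the test against a fold change of 2 and ran from 0.0118 to 0.134 over the other alternatives, the highest of these without psoas 1.

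Trim54 encodes MuRF3, a microtubule-stabilizing member of the family. Trim54 (ENSMUSG00000062077) lies on chromosome 5, 31116712 to 31137630 on the plus strand (GRCm38). It stood at 44.9, 71.9, and 84.4 CPM in EDL 1 to 3, 114, 111, and 94.7 in psoas 1 to 3, and 93.1, 74.7, 112, and 83.3 in soleus 1 to 4. Psoas lay above EDL, and soleus overlapped with both. Its log2 fold change was 0.67 for psoas over EDL (SE 0.24, 95% interval 0.15 to 1.18, edgeR adjusted p 0.0895), 0.44 for soleus over EDL (-0.05 to 0.93), and -0.23 for soleus over psoas (-0.71 to 0.25).

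Within the MuRF family, Trim63 took 46.2% ± 6.55 of the counts per kilobase in EDL, 46.6% ± 7.04 in psoas, and 37.6% ± 6.83 in soleus. Trim54 took 47.1% ± 6.14, 47.0% ± 5.19, and 56.7% ± 7.39. These shares overlapped in every pair, with exact permutation p from 0.114 to 1.0. Which of these genes was the more abundant depended on the length used, because the summed exons of Trim63 cover 2842 bases and its longest transcript 1886. By the longest transcript Trim63 had 56.2% and Trim54 38.3% in EDL. Trim55 was the minor member, at 5.62% to 6.67% on average. Titin mRNA (Ttn), whose protein binds MuRF1 and MuRF2, stood at 27100 ± 690 CPM in EDL, 47700 ± 7650 in psoas, and 42700 ± 8090 in soleus. All EDL libraries lay below all others. The log2 fold change for psoas over EDL was 0.82, with an edgeR adjusted p of 0.131. By DESeq2 the authors reported Ttn as significantly higher in psoas than in EDL.

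Fbxo32 and Trim63, often used together as atrophy markers, were ordered differently over the muscles. The ratio of Fbxo32 to Trim63 per kilobase was 0.117, 0.131, and 0.207 in EDL 1 to 3. It was 0.209, 0.172, and 0.304 in psoas 1 to 3, and 0.432, 0.693, 0.589, and 0.428 in soleus 1 to 4. On the log2 scale the means were -2.77 ± 0.44, -2.17 ± 0.42, and -0.93 ± 0.34. All soleus ratios lay above all others, and EDL and psoas overlapped. This ratio was not tested.

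**Figure D4:**
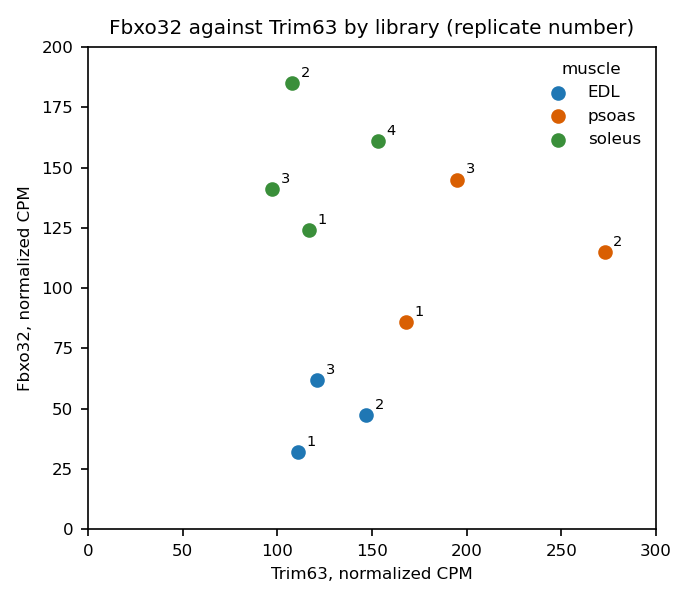
Normalized CPM of Fbxo32 (vertical) against Trim63 (horizontal) in the 10 libraries, with replicate numbers, on linear axes. Soleus lies high on the Fbxo32 axis (124 to 185) and at 97.4 to 153 on the Trim63 axis, psoas lies to the right at 168 to 273, and EDL lies lowest on the Fbxo32 axis.

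The FoxO genes did not pass the thresholds in any comparison. Foxo1 (ENSMUSG00000044167) lies on chromosome 3, 52268336 to 52353221 on the plus strand (GRCm38). Foxo3 (ENSMUSG00000048756) lies on chromosome 10, 42181841 to 42276755 on the minus strand (GRCm38). Foxo1 stood at 5.65, 6.69, and 5.77 CPM in EDL 1 to 3, 10.1, 3.87, and 9.35 in psoas 1 to 3, and 8.55, 5.74, 3.75, and 9.45 in soleus 1 to 4. It spread widely within psoas and soleus, with coefficients of variation of 43.7% and 38.0%, and the muscles overlapped in every pair. Its 95% intervals, the widest of the members, ran from -0.46 to 1.19 for psoas over EDL and from -0.59 to 0.96 for soleus over EDL. Foxo3 stood at 8.64, 9.55, and 10.9 CPM in EDL 1 to 3, 13.0, 7.55, and 14.9 in psoas 1 to 3, and 13.1, 18.2, 8.61, and 18.4 in soleus 1 to 4. For soleus over EDL its log2 fold change was 0.60 (SE 0.28, 95% interval -0.02 to 1.22, edgeR adjusted p 0.156), and soleus 3 lay under all EDL libraries.

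Foxo4 was the most abundant of the FoxO genes per kilobase. Foxo4 (ENSMUSG00000042903) lies on chromosome X, 101254528 to 101260873 on the plus strand (GRCm38). It stood at 23.2, 27.7, and 45.6 CPM in EDL 1 to 3, 35.0, 53.4, and 53.5 in psoas 1 to 3, and 37.2, 43.4, 31.8, and 34.0 in soleus 1 to 4. All pairs of muscles overlapped. Its log2 fold change for psoas over EDL was 0.56 (SE 0.26, 95% interval -0.01 to 1.12, edgeR adjusted p 0.178). It took 81.5% ± 4.02 of the family in EDL, 84.2% ± 6.87 in psoas, and 79.7% ± 4.86 in soleus, with overlap in every pair. Foxo6, a family member known mainly from brain, had a mean of 1.03 CPM in EDL, 1.89 in psoas, and 0.748 in soleus. All psoas libraries lay above all others. Its log2 fold change was -1.32 for soleus over psoas (SE 0.33, edgeR adjusted p 0.0218), a call by DESeq2 only. For psoas over EDL it was 0.86 (SE 0.34, adjusted p 0.124), and for soleus over EDL -0.45 (SE 0.33, adjusted p 0.355). Levels were low, with soleus 3 at 0.399 CPM, where 3 counts were worth 0.239.

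In psoas vs EDL all 9 members had a higher mean in psoas, with a median log2 fold change of 0.62 against 0.01 for all genes tested. Of the 9, 4 had groups that did not overlap (29.6% of all genes). In soleus vs EDL 7 were higher and 2 lower, with a median of 0.19 against -0.05 for all genes, and 1 did not overlap (29.5% of all genes). In soleus vs psoas 2 were higher and 7 lower, with a median of -0.23 against 0.02, and 2 did not overlap (25.8% of all genes). The comparisons share libraries, so these counts do not stand for separate evidence. EDL 1 was the lowest EDL library for 8 members and EDL 3 the highest for 7. EDL 1 also had the highest tendon and fibroblast sum (3930 CPM) and EDL 3 the lowest of the EDL libraries (2440), while the sums of fast myofiber markers were 70000 and 98600 CPM. The part of these in the EDL values was not tested. With the libraries of high Lars2 content as a covariate, a fit added after seeing the data, the members called were 1, 1, and 0 in psoas vs EDL, soleus vs EDL, and soleus vs psoas.

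In 3 animals the soleus could be compared with another muscle of the same animal code. Fbxo32 was at 185 CPM in soleus and 61.8 in EDL of animal 765A, a log2 difference of 1.58. In animals 659 and 765B it was 0.53 and 0.15 higher in soleus than in psoas. Trim63, Trim55, and Fbxo40 were lower in soleus than in psoas in both of these animals, with log2 differences of -0.52 and -0.35 for Trim63, -1.08 and -0.62 for Trim55, and -0.70 and -0.52 for Fbxo40. Foxo3 was 0.73 higher in soleus than in EDL of 765A. Other pairs went against the sign of the fitted difference between muscles. In 765A these were Fbxo40 (-0.28, fitted 0.15), Trim54 (-0.18, fitted 0.44), Foxo4 (-0.07, fitted 0.19), and Foxo1 (-0.01, fitted 0.19). In 659 they were Foxo4 (0.09, fitted -0.37) and Fbxo30 (0.05, fitted -0.02), and in 765B Foxo1 (0.02, fitted -0.18). These are single pairs with no test.

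The partners of the F-box ligases and the proteasome showed few or no calls, and few would be expected at the shares of all genes. Those shares were 2.11%, 5.77%, and 5.69% called in psoas vs EDL, soleus vs EDL, and soleus vs psoas. At an unadjusted p under 0.05 they were 29.0%, 35.0%, and 28.4%, and by DESeq2 6.80%, 9.43%, and 8.58%. The same shares apply to the counts of the other lists below. Of 14 measured genes of the SCF core and cullin machinery, 0 passed in psoas vs EDL (6 at an unadjusted p under 0.05, 2 called by DESeq2) and 0 in soleus vs EDL (2 at an unadjusted p under 0.05, 0 by DESeq2). In soleus vs psoas 1 was called, lower in soleus (7.14%, against 5.69% of all genes), with 6 at an unadjusted p under 0.05 and 1 by DESeq2. The called gene was Ube2d1, an E2 ubiquitin-conjugating enzyme, at 20.1 ± 6.25 CPM in psoas and 5.93 ± 1.26 in soleus. Its log2 fold change was -1.76 (SE 0.24, edgeR adjusted p 0.000841), a call lost with the run stand-in as a covariate. In EDL Ube2d1 stood at 7.92 ± 1.56 CPM, overlapping with soleus and wholly below psoas. For psoas over EDL its log2 fold change was 1.35 (adjusted p 0.0108), short of the p threshold. Cul1, the scaffold of the complex, ranged from 88.8 to 109 CPM in EDL, 91.7 to 120 in psoas, and 83.1 to 106 in soleus. Of 31 proteasome subunit genes 0 passed in any comparison, with 3, 2, and 1 at an unadjusted p under 0.05 and 0 by DESeq2 in each. Their median log2 fold changes were 0.13, 0.12, and -0.03. Of 4 ubiquitin genes 0 passed, with 1, 1, and 0 at an unadjusted p under 0.05 and 0 by DESeq2. Ubb, a polyubiquitin gene, stood at 420 ± 32.0 CPM in EDL and 257 ± 14.4 in soleus, with a log2 fold change of -0.71 short of the fold threshold (edgeR adjusted p 0.00902).

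Among 23 other measured muscle ubiquitin ligases, 2 rose in soleus vs EDL and none fell (8.70% called, against 5.77% of all genes). At an unadjusted p under 0.05 there were 6 of the 23, and DESeq2 called 2. Trim72 (MG53), a TRIM ligase of membrane repair, was at 87.7 ± 34.8 CPM in EDL and 310 ± 43.6 in soleus, a log2 fold change of 1.82 (SE 0.27, edgeR adjusted p 0.0013), a call lost without EDL 2. The test against a fold change of 2 called none of the genes named from the lists except Mybpc2 in soleus vs psoas. Fbxo21, an F-box gene, was at 6.26 ± 1.06 and 12.5 ± 1.20 CPM, with a fold change of 2.01 near the edge of the threshold, and was called in 11 of 26 alternatives. Against psoas, 1 rose and 2 fell in soleus (13.0%, against 5.69% of all genes), with 11 at an unadjusted p under 0.05 and 3 by DESeq2. Trim72 rose by 1.36 on the log2 scale (adjusted p 0.00594), a call lost without psoas 1 or 2, without soleus 2, 3, or 4, and with read trimming or the run stand-in as a covariate. Asb15, a SOCS-box ligase subunit, was at 27.8 ± 6.17 CPM in psoas and 7.95 ± 1.89 in soleus (-1.79, adjusted p 0.000482). Klhl31, a Kelch adaptor, was at 960 ± 151 and 432 ± 57.5 (-1.15, adjusted p 0.007). In EDL Asb15 and Klhl31 stood at 11.6 ± 2.15 and 599 ± 200 CPM, overlapping with soleus. The Klhl31 call was lost without any 1 of the psoas or soleus libraries and with replicate number as a block. In psoas vs EDL 0 passed, with 3 at an unadjusted p under 0.05 and 1 by DESeq2.

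Of 32 genes listed as FoxO targets, 4 rose and 1 fell in soleus vs EDL (15.6% called, against 5.77% of all genes). At an unadjusted p under 0.05 there were 14 of the 32, and DESeq2 called 5. Pdk4, a kinase that shuts down pyruvate dehydrogenase, was at 75.1, 144, and 25.3 CPM in EDL 1 to 3 and at 970, 334, 927, and 742 in soleus 1 to 4. In psoas it was at 560, 589, and 590 CPM. All EDL libraries lay below all others. The log2 fold change of soleus over EDL was 3.19 (SE 0.54, edgeR adjusted p 0.00298), and the call was lost without EDL 1, with the run stand-in as a covariate, and with replicate number as a block. For psoas over EDL it was 2.83 (adjusted p 0.0115), short of the p threshold.

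Cat, the catalase gene, rose by 1.85 on the log2 scale in soleus over EDL (edgeR adjusted p 0.000313), from 59.2 ± 4.94 to 214 ± 39.6 CPM, a call lost with the run stand-in as a covariate (adjusted p 0.0122). Bnip3, a mitophagy receptor gene, rose by 1.63 (adjusted p 0.000479), from 134 ± 8.97 to 415 ± 79.7 CPM. Gabarapl1, which encodes an autophagosome protein, rose by 1.09 (adjusted p 0.00591) from 30.7 ± 3.73 to 65.4 ± 18.5 CPM, a call held in 14 of 26 alternatives. Gadd45a, a growth arrest and DNA damage gene, fell by 1.53 on the log2 scale (adjusted p 0.00301), from 9.51 ± 2.75 to 3.28 ± 0.784 CPM, a call lost without soleus 2 or soleus 4.

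Against psoas, 2 FoxO target genes rose and 1 fell in soleus (9.38%, against 5.69% of all genes), with 12 at an unadjusted p under 0.05 and 4 by DESeq2. Cat rose by 1.29 (edgeR adjusted p 0.00207), Gabarapl1 rose by 1.42 (0.00149), and Gadd45a fell by 1.93 (0.000805), all on the log2 scale. Cat was not called without psoas 1 or psoas 2, nor Gabarapl1 without psoas 2, and neither was called with read trimming or the run stand-in as a covariate. In psoas vs EDL 0 of the 32 passed, with 9 at an unadjusted p under 0.05 and 2 by DESeq2. The median log2 fold change of the list was 0.15, 0.27, and -0.10 in psoas vs EDL, soleus vs EDL, and soleus vs psoas, against 0.01, -0.05, and 0.02 for all genes.

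**Figure D5:**
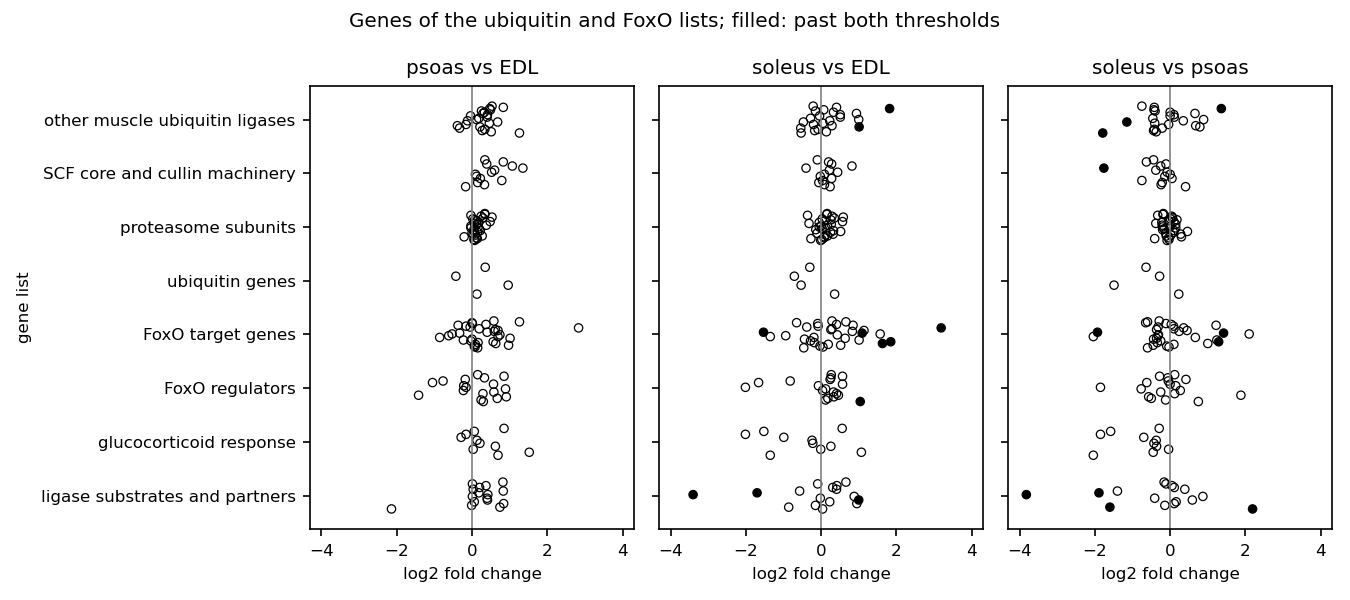
Log2 fold change (horizontal axes) of each gene in 8 lists of the ubiquitin system and of FoxO signaling, first muscle over second, with filled points past both thresholds. In psoas vs EDL no point is filled, and the filled point farthest to the right in soleus vs EDL is Pdk4 at 3.19.

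Of 18 genes that regulate FoxO factors, 1 rose in soleus vs EDL (5.56%), a share near the 5.77% of all genes. At an unadjusted p under 0.05 there were 6 of the 18, and DESeq2 called 2. The gene that rose was Akt1, a kinase that holds FoxO factors outside the nucleus. It was at 13.7 ± 2.96 CPM in EDL and 28.2 ± 6.43 in soleus (1.04, SE 0.21, edgeR adjusted p 0.00684), called in 14 of 26 alternatives. Akt2, a second Akt gene, stood at 123 ± 54.9 and 134 ± 12.1 CPM. In the other comparisons 0 of the 18 passed, with 7 and 6 at an unadjusted p under 0.05 in psoas vs EDL and soleus vs psoas and 0 and 1 by DESeq2. Of 10 glucocorticoid response genes 0 passed in any comparison, with 1, 3, and 3 at an unadjusted p under 0.05 and 0, 2, and 2 by DESeq2. Their log2 fold changes were above 0 for 8, 3, and 0 genes. Tsc22d3 stood at 153 ± 10.5 CPM in EDL, 160 ± 16.7 in psoas, and 53.4 ± 29.0 in soleus, where all libraries lay below the others. Its log2 fold changes in soleus were -1.52 against EDL and -1.58 against psoas (edgeR adjusted p 0.0131 and 0.0113). For Sgk1 these were -2.01 and -1.85 (adjusted p 0.0218 and 0.0347). Nr3c1, the glucocorticoid receptor gene, stood at 143 ± 33.6 CPM in EDL, 157 ± 45.7 in psoas, and 121 ± 31.2 in soleus.

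Of 16 ligase substrates and partners, 1 rose and 2 fell in soleus vs EDL (18.8%, against 5.77% of all genes) and 1 rose and 3 fell in soleus vs psoas (25.0%, against 5.69%). At an unadjusted p under 0.05 there were 7 of the 16 in each comparison, and DESeq2 called 2 and 4. The genes that fell in the edgeR calls are genes of fast fibers or of their energy supply. Mybpc2, fast myosin-binding protein C, was at 2640 ± 1020 CPM in EDL, 3550 ± 53.3 in psoas, and 251 ± 177 in soleus (-3.40 and -3.82 on the log2 scale, edgeR adjusted p 0.00166 and 0.000874). Mylpf, the fast regulatory light chain, fell by 1.70 and 1.89 (adjusted p 0.00152 and 0.00084). With the run stand-in as a covariate the soleus vs EDL calls were lost for both genes. Ckm, muscle creatine kinase, fell by 1.60 in soleus vs psoas (adjusted p 0.0025), a call lost without psoas 1 or soleus 4 and with replicate number as a block. Fast myofiber markers moved with them, at 12500 to 24700 summed CPM in soleus against 69600 to 98600 in EDL and 99600 to 105000 in psoas, and their part in these falls was not tested. Hdac5, a histone deacetylase gene, rose from 8.18 ± 0.151 CPM in EDL to 16.4 ± 3.90 in soleus (adjusted p 0.00409). Cdh2, N-cadherin, was higher by 2.19 on the log2 scale in soleus over psoas (adjusted p 0.00773). It stood at 3.61 ± 0.268 CPM in EDL, 0.765 ± 0.401 in psoas, and 3.64 ± 1.91 in soleus. All psoas libraries lay below all others. Psoas 2 and 3 were at 0.444 and 0.637 CPM, where 3 counts were worth 0.19 and 0.212. Hdac5 and Cdh2 were each called in 9 of 26 alternatives. In psoas vs EDL 0 of the 16 passed, with 4 at an unadjusted p under 0.05 and 1 by DESeq2.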

How the data were processed

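The authors sequenced total RNA from 10 libraries (TruSeq Stranded Total RNA with ribosomal and globin depletion, paired reads), trimmed the reads of 4 libraries with Trimmomatic 0.32, and aligned with TopHat2 2.1.1 to GRCm38.p4. They deposited raw read counts per gene, without normalization, after removing genes that did not reach 10 reads in 3 or more libraries, a filter that all 16112 genes in the tables passed. The strand setting and the handling of reads with several alignments are not given in the sources used here. Of the read-length windows (75 bases) of the transcripts, 1.65% of Fbxo32, 14.9% of Trim54, and 6.13% of Foxo1 also occur in an overlapping or antisense gene, and 0 of those of the other members occur in another gene. Without a stated strand setting, reads of Fbxo32 and Trim54 and of their antisense partners (at most 5.33 and 2.69 CPM) cannot be told apart.

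Counts were fitted in R 4.3.3 with edgeR 4.0.16 (TMM, quasi-likelihood, 3 muscles in 1 model, no covariate, Benjamini-Hochberg adjustment over all genes, adjusted p under 0.01 and fold over 2). DESeq2 1.42.0 and limma 3.58.1 gave alternatives. Fits with covariates used read trimming, a run proxy or stand-in (trimmed, untrimmed at 44 days, other untrimmed), sex, and replicate number, since the run of each library is not listed. Only EDL 3 and psoas 3 share a trimming or run proxy class with soleus libraries, and soleus 1 and 3 alone make up the last run proxy class. Soleus comparisons in these fits therefore rest on few libraries. Levels per kilobase used summed exon lengths of GENCODE M21 (GRCm38). The tests across genes were tested on simulated data. Replicates of a muscle carry different animal codes, and 3 codes gave 2 libraries in different muscles. Floors (3 counts) cover counting error only.

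The 9 members and all gene lists were chosen with earlier results of these data known. From each list, genes past both thresholds are named (at most 3 in each direction, by size of fold change), with others as background levels. Gabarapl1 in soleus vs EDL falls outside this rule and was added after its values were seen, to complete the count. Tsc22d3, Sgk1, and the tests of Foxo6 were also added after their values were seen. Sqstm1, Klf15, Ddit4, and Sgk1 are each in 2 lists. For each member the 3 genes with the highest Pearson correlation over the 10 libraries are named, among 6015 genes with a mean of at least 10 CPM, and 1 gene that this rule takes is not reported here. Differences in library order within EDL were chosen after their values were seen.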

Additional observations from a re-analysis of the deposited data

How the results depend on the processing

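The count of members called in psoas vs EDL was 1 in place of 0, in each case Fbxo32, with DESeq2, at an adjusted p under 0.05 without a fold threshold, with the animal as a random effect, and with read trimming, the run proxy, sex, or high Lars2 content (added after seeing the data) as a covariate. Leaving out each library gave 0 to 1, with 1 without EDL 3. In soleus vs EDL the count was 0 in place of 1 in the test against a fold change of 2 and with read trimming as a covariate, and 0 to 1 with a library left out, with 0 without EDL 2. In soleus vs psoas it was 2 (Trim63 and Trim55) at an adjusted p under 0.05, and 0 with any library left out. The cause was not tested.

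To look for pairing, the deviations of log2 normalized CPM from the muscle mean of each gene were correlated between libraries of different muscles. For these deviations r was -0.234 to 0.503 over 9 pairs of same-numbered libraries, and 5 of 9 libraries correlated best with their own number. These values do not settle whether the numbers pair the samples. By the animal codes, psoas 1 and soleus 1 share both number and animal. EDL 3 with soleus 2, and psoas 3 with soleus 4, share an animal under different numbers. With replicate number as a block the counts were 0, 1, and 0, and Foxo1 in soleus vs EDL was -0.06.

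Differences that changed sign were small and uncalled. In soleus vs EDL these were Fbxo40 (-0.08 with the run proxy, -0.16 with sex, -0.10 to 0.26 with a library left out), Trim63 (0.13 with the run proxy, -0.24 to 0.03), Trim55 (-0.24 to 0.14), Foxo1 (-0.00 to 0.33), and Foxo4 (-0.14 with trimming, -0.06 with the run proxy, -0.05 to 0.53). In soleus vs psoas these were Fbxo30 (0.03 with thinned counts, 0.01 without Lars2, -0.18 to 0.09) and Foxo1 (0.11 with thinned counts, -0.49 to 0.04). Of shares, in percentage points with a library left out, psoas vs EDL ranged from -3.24 to 4.12 for Trim63, -1.14 to 0.78 for Trim55, -3.03 to 3.09 for Trim54, -2.35 to 0.819 for Foxo1, -3.55 to 0.11 for Foxo3, and -0.929 to 5.91 for Foxo4. Soleus vs EDL ranged from -0.853 to 0.347 for Fbxo30, -1.76 to 0.00271 for Foxo1, and -3.69 to 0.495 for Foxo4, and soleus vs psoas from -1.83 to 0.0982 for Trim55 and -1.46 to 1.71 for Foxo1 (-0.08 without length correction). Counts of calls in the pathway lists moved by over 1.5 times in 87 values and less in 345, and with a library left out in 34 and 236. No called pathway gene changed direction in these alternatives. The lowest member count was 47 (Foxo1 in soleus 3), and thinning to the shallowest library changed the direction of Foxo1 and Fbxo30 in soleus vs psoas and no count of members called. Upper-quartile scaling moved the median of all genes to -0.14 in soleus vs EDL.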

Other observations

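Genes that followed a member most closely over the 10 libraries were sought by Pearson's r of log2 normalized CPM. These libraries share 3 muscles, depth, and trimming, so r describes a common pattern, and no p is given. Fbxo32 was followed by Rhou and Ehbp1l1 (r = 0.97 each). Fbxo30 was followed by E2f6 (0.97), Naa35 (0.95), and Oxsr1 (0.95), and Fbxo40 by Lactb (0.95), Metap1 (0.93), and Cnih4 (0.93). Trim63 was followed by Gng5 (0.93), Carnmt1 (0.92), and Dpy30 (0.91), Trim55 by Atp11a (0.96), Rora (0.96), and Ccdc6 (0.95), and Trim54 by Ube2j2 (0.97), Opa3 (0.96), and Dnajc21 (0.95). For the FoxO genes these were Nrip1 (0.88), Snrk (0.87), and Shroom4 (0.86) with Foxo1, Polr1a (0.93), Jup (0.91), and Elk4 (0.90) with Foxo3, and Ralgapb (0.98), Atpaf2 (0.98), and Ubl3 (0.96) with Foxo4.

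Between members r was highest for Fbxo32 with Fbxo30 (0.83) and for Fbxo40 with Trim54 (0.76). Fbxo32 and Trim63 had r = 0.13. Foxo1 and Foxo3 had r = 0.70 with each other, and with Fbxo32 r = 0.09 and 0.57.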
